A study of Mus musculus with 20 samples.

Results

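The genes described here encode the translation initiation and elongation factors of the mouse, the proteins that bring ribosomes to the start codon and carry them along the mRNA. They were found by mapping the Ensembl gene IDs of the count tables to symbols and taking protein-coding genes whose symbols begin with Eif1 to Eif6, Eef1 or Eef2. Of 73 matching symbols, 6 were not protein coding and 5 were kinases of the factors (the Eif2ak genes and Eef2k), which were left out. The remaining 62 genes stood among 37991 gene IDs, of which 20214 were protein coding. By role they comprised 45 initiation factors, 6 core elongation factors, 2 eIF5A genes, 5 enzymes or partners that act on elongation factors, and 4 repressors or binding partners of eIF4E.

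RNA was sequenced from mouse embryonic stem cells (ESCs) that are conditional knockouts for Cnot3. Cnot3 is part of the CCR4-NOT complex, which shortens the poly(A) tails of mRNAs. Knockout (KO) cells had received 0.1 µM 4-hydroxytamoxifen (4OHT) and wild-type (WT) cells DMSO, and each of the 10 groups had 2 biological replicates. RNA of whole cells (total) and RNA bound to polysomes were sampled on day 3 from KO and WT cells. On day 2, actinomycin D, which blocks transcription, was added at 10 µg/ml to KO and WT cells and whole-cell RNA was taken after 0, 4 and 8 h. The strain is given as C57BL/6. E14Tg2a, another ESC line, is the labelled source of all 4 WT libraries on day 3, but the design text describes WT as conditional cells given DMSO, and which of these holds is not settled by the labels. Every KO library also received 4OHT, so the drug and the deletion cannot be told apart.

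Initiation begins when eIF4F, made of the cap-binding protein eIF4E, the scaffold eIF4G and the helicase eIF4A, meets a 43S complex that holds eIF3, eIF1, eIF1A, eIF5 and the eIF2-GTP-initiator tRNA complex, and eIF2B recharges eIF2 with GTP afterwards. In elongation, eEF1A brings aminoacyl-tRNA, the eEF1B subunits recharge eEF1A, and eEF2 moves the ribosome on by a codon. Many mRNAs of elongation factors and some of initiation factors are known as TOP mRNAs: they begin with a C and a run of pyrimidines (C or T), through which growth signals set their translation.

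Sequences around the annotated transcription start are shown because this run is the feature that the class is best known for. Each line holds 10 bases before and 20 bases from the RefSeq start on GRCm38.p6, 5′ to 3′ on the gene's strand. Capitals mark a run of C followed by at least 5 pyrimidines whose first base lies within 5 bases of the start.
Eef1a1, chr9:78481705-78481734, minus strand: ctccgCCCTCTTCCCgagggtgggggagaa
Eef2, chr10:81176621-81176650, plus strand: aaggccgggcgttgacgtcagcggtctctt
Eif3f, chr7:108934405-108934434, plus strand: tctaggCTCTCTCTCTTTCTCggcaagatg
Eif3l, chr15:79075213-79075242, plus strand: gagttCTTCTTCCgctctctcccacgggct
Eif2s3x, chrX:94212632-94212661, minus strand: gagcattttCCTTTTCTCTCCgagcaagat
Eif2s3y, chrY:1010585-1010614, plus strand: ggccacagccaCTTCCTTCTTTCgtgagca
The window of Eef1a1 holds a run that begins 5 bases before the annotated start, and the window of Eef2 holds none. The runs of Eif3f, Eif3l and Eif2s3x begin before the annotated start as well. Whether the mRNAs themselves begin with these runs was not tested. Of 46 factor genes with a RefSeq promoter entry, 8 held such a run (17.4%), against 3229 of 27025 genes in all (11.9%). The 8 comprised 1 of 4 core elongation factors and 7 of 35 initiation factors. A match describes these letters only.

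Sites in the 3′ untranslated region are shown for members whose mRNA was lost at a different relative rate in KO cells, since both motifs are known as sites of proteins that recruit CCR4-NOT. Each line holds a site with 9 bases on either side, from GENCODE M21 on GRCm38, with the motif in capitals: TATTTAT, the AU-rich element, or TGTANATA, the Pumilio site.
Eef1e1, chr13:38645796-38645820, minus strand: tctcttagaTATTTATtgtagttta
Eif3a, chr19:60761337-60761361, minus strand: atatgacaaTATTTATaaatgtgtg
Eef2, chr10:81182204-81182228, plus strand: taccaattcTATTTATttcggaatt
Eif4a3, chr11:119288400-119288425, minus strand: taatgcacaTGTACATAatccgatgc
Eif4e, chr3:138556415-138556440, plus strand: gtacaaaacTGTAAATAaaatgtgta
On the transcript strand, TATTTAT occurred in 15 of 59 factor genes (25.4%), against 4051 of 14163 genes (28.6%). TGTANATA occurred in 14 of the 59 (23.7%), against 3581 genes (25.3%).

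Libraries held 27664391 to 35170012 gene counts in total RNA, 13832829 to 16688555 in polysome RNA and 14513891 to 33262905 in the actinomycin D series, and the 62 genes took between 2.27% and 3.77% of them. Levels are given in CPM, the counts relative to the library's total after scaling by the trimmed mean of M values, and are thus relative to the other mRNAs of a library. Cnot3 stood at 10.8% of its WT level in KO cells at 0 h, at 16.6% in total RNA and at 18.3% in polysomes. The 5 ESC markers summed to 2358 to 2370 CPM in KO cells at 0 h, against 3355 to 3402 CPM in WT cells, and the 10 trophectoderm markers to 284.5 to 297.5 CPM in KO cells, against 158.2 to 168.9 CPM in WT cells. On day 3 the trophectoderm sum was 664.2 to 682.5 CPM in KO total RNA, against 190.0 to 196.8 CPM in WT total RNA. The 8 feeder fibroblast markers were low but moved the same way, to 42.5 CPM in both KO libraries at 0 h, against 27.3 and 27.5 CPM in WT libraries, and to 41.6 and 47.0 CPM in KO total RNA, against 22.6 and 25.6 CPM in WT total RNA. Of those tested, 3 of 4 rose at 0 h, 5 of 6 in total RNA and 1 of 6 in polysomes by edgeR, while the defining markers Lum and Dcn had no count in any library at 0 h. The part of these shifts in the results below was not tested, and in bulk RNA fewer cells of a type and less RNA per cell cannot be told apart. The second WT polysome library stood apart, with 5.02% of its counts on mRNAs of the mitochondrial genome, where the rest of the day 3 libraries had 0.912% to 1.38%.

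In WT cells at 0 h the factor mRNAs spanned a wide range of levels per kilobase of exon. Eef2 stood at 1556 CPM per kb, Eef1a1 at 1492, Eif5a at 609, Eef1b2 at 449 and Eif3b at 226 CPM per kb. The order of Eef2 and Eef1a1 is uncertain: per kilobase of 1 transcript in place of all exons Eef1a1 was at 2074 and Eef2 at 1675 CPM, and in WT total RNA Eef1a1 was at 4722 and Eef2 at 1233 CPM per kb of exon. Genes that share sequence with other genes may also rank otherwise. Eif4a1 was at 311.9 and 313.5 CPM in WT cells at 0 h, against 3794 and 3642 CPM in WT total RNA. Eef1g was at 243.9 and 245.8 CPM, against 1589 and 1626 CPM. Reads with more than 1 alignment were tallied at 0 in the libraries at 0 h but not in total RNA, and their part in the ranking was not tested. The lowest were Eif4ebp3 at 0.0960, Eif4e1b at 0.125 and Eef1akmt3 at 0.131 CPM per kb. Eif4e1b, a germline form of the cap-binding protein, and Eif4ebp3, a repressor of it, had at most 15 and 9 counts in any library and were not tested. Eef1akmt3, an eEF1A methyltransferase with at most 17 counts, was tested on day 3 alone, which left 60 genes tested in total and polysome RNA and 59 in the actinomycin D series.

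At 0 h on day 2, most factor mRNAs were lower in KO cells, among core elongation and initiation factors alike. Of 59 factor mRNAs tested, 38 fell and 11 rose at an adjusted p under 0.05 (edgeR's quasi-likelihood test with Benjamini-Hochberg adjustment over all genes), where 32.9% of all tested genes fell and 29.8% rose. The median log2 change was -0.23 over the factors and -0.01 over all genes. Among core elongation factors 5 of 6 fell and 1 rose, with a median log2 change of -0.27, and among initiation factors 27 of 44 fell and 9 rose, with a median of -0.20. KO and WT libraries did not overlap for 52 of the 59, where 80.7% of all tested genes did not. The p-values measure the spread between biological replicates, with n = 2 a group.

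The translocase mRNA Eef2 was at 4305 and 4060 CPM in KO cells at 0 h, against 5226 and 5121 CPM in WT cells. Eef1a1, the main form of the tRNA-delivering factor in these cells, was at 2785 and 2869 CPM in KO cells, against 3692 and 3748 CPM in WT cells. Eef1b2, an exchange-factor subunit, was at 956.2 and 975.1 CPM in KO cells, against 1124 and 1148 CPM in WT cells. In all 3 the KO libraries lay below both WT libraries. The log2 changes were -0.31 ± 0.03 for Eef2, -0.40 ± 0.03 for Eef1a1 and -0.23 ± 0.03 for Eef1b2 (SE), with adjusted p of 6.22e-10, 3.30e-13 and 1.25e-07 by edgeR's quasi-likelihood test. The other eEF1B subunits fell too, Eef1g to 194.9 and 199.7 CPM in KO cells, against 243.9 and 245.8 CPM in WT cells, and Eef1d to 360.3 and 352.1 CPM in KO cells, against 394.4 and 386.7 CPM in WT cells. Eef1d fell by 0.13 ± 0.04 on the log2 scale (adjusted p 0.00217, edgeR), but with scaling to library totals its change was 0.02 with an adjusted p of 0.591. Eef1a2, the form of eEF1A best known from muscle and nerve, went the other way on a low level: it was at 6.92 and 6.38 CPM in KO cells, against 3.89 and 3.27 CPM in WT cells, a log2 change of 0.90 ± 0.14 (adjusted p 9.00e-07, edgeR). Its counts ran from 97 to 154 in these 4 libraries.

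The mRNA of eIF5A, the hypusine-bearing factor that helps ribosomes through proline-rich stretches and works in elongation despite its name, had a larger log2 change than the core elongation factor mRNAs that fell. Eif5a was at 872.1 and 920.2 CPM in KO cells at 0 h, against 1420 and 1478 CPM in WT cells, with a log2 change of -0.69 ± 0.04 (adjusted p 2.01e-18, edgeR). Its paralog Eif5a2 was at 20.8 and 18.7 CPM in KO cells, against 22.6 and 21.7 CPM in WT cells, and did not pass (log2 -0.16 ± 0.08, adjusted p 0.0578, edgeR). With the replicate number as a block the adjusted p of Eif5a2 was 0.0490.

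Among initiation factors at 0 h, the start-codon group of eIF1, eIF1A, eIF2 and eIF5 genes was lower with 1 exception: 9 of 10 fell and none rose. Eif1, whose product keeps the scanning complex stringent, was at 93.9 and 96.6 CPM in KO cells, against 150.8 and 144.8 CPM in WT cells (log2 -0.63 ± 0.05). Eif2s3y, the Y-linked gene for the gamma subunit of eIF2, was at 25.4 and 29.7 CPM in KO cells, against 42.5 and 43.8 CPM in WT cells (log2 -0.65 ± 0.06). KO and WT libraries of both genes stood apart. Eif1a, Eif1b and Eif1ax fell by 0.57, 0.54 and 0.49 on the log2 scale. The exception was Eif2s1, for the alpha subunit that stress kinases phosphorylate, with a log2 change of -0.01 ± 0.04 (adjusted p 0.763, edgeR).

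Of the 14 eIF3 subunit genes, 11 fell and 2 rose at 0 h. The 2 that rose were Eif3a, for the large scaffold subunit, at 0.36 ± 0.04, and Eif3g, for an RNA-binding subunit, at 0.30 ± 0.04 (log2, KO over WT). The lowest change of the complex, -1.28 ± 0.37 for Eif3j1 (adjusted p 0.00313, edgeR), rested on 9 and 9 counts in KO libraries, against 28 and 30 counts in WT libraries, in a gene that shares much of its sequence with a paralog. In the cap complex 5 of 11 tested members fell and 3 rose. Eif4g2, which encodes a cap-independent relative of eIF4G, was the lowest at -0.50 ± 0.04, and Eif4e3, which encodes a divergent cap-binding protein, the highest at 1.51 ± 0.25 (adjusted p 1.42e-06, edgeR). Eif4e3 was scarce, with 55 and 49 counts in KO libraries, against 23 and 25 counts in WT libraries. Eif4g3 rose to 70.2 and 72.4 CPM in KO cells, against 52.4 and 51.7 CPM in WT cells (log2 0.45 ± 0.05).

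Of the 5 genes for subunits of eIF2B, 3 rose at 0 h and 1 fell. Eif2b4, for the delta subunit, was at 123.8 and 127.3 CPM in KO cells, against 83.9 and 79.2 CPM in WT cells (log2 0.62 ± 0.05, adjusted p 4.89e-14, edgeR). KO libraries lay above both WT libraries. Eif2b3 and Eif2b5 rose by 0.15 ± 0.04 and 0.11 ± 0.04 on the log2 scale. These small rises depended on the scaling: with relative log expression (RLE) scaling Eif2b3 was at 0.02 with an adjusted p of 0.770 and Eif2b5 at -0.03 with 0.549, and without the first WT library at 0 h their adjusted p were 0.0651 and 0.183. Of the genes acting on elongation factors 3 of 4 tested fell, the lowest being Eef1akmt2, for an eEF1A methyltransferase, at -0.59 ± 0.10. Of the eIF4E repressors and partners, Eif4ebp1 (log2 -0.28 ± 0.04) and Eif4ebp2 (-0.43 ± 0.04) fell, and Eif4enif1, which encodes the transporter 4E-T, rose by 0.09 ± 0.04 (adjusted p 0.0454, edgeR). Eif4enif1 was not among the 6 factors called higher with RLE scaling, nor among the 6 with DESeq2. RLE scaling called 6 factors higher and 46 lower, DESeq2 6 and 45, and library totals 19 and 28, against 11 and 38 as reported, while the first of these shifted the median of all genes by -0.14 (log2) and the last by 0.15.

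**Figure D1:**
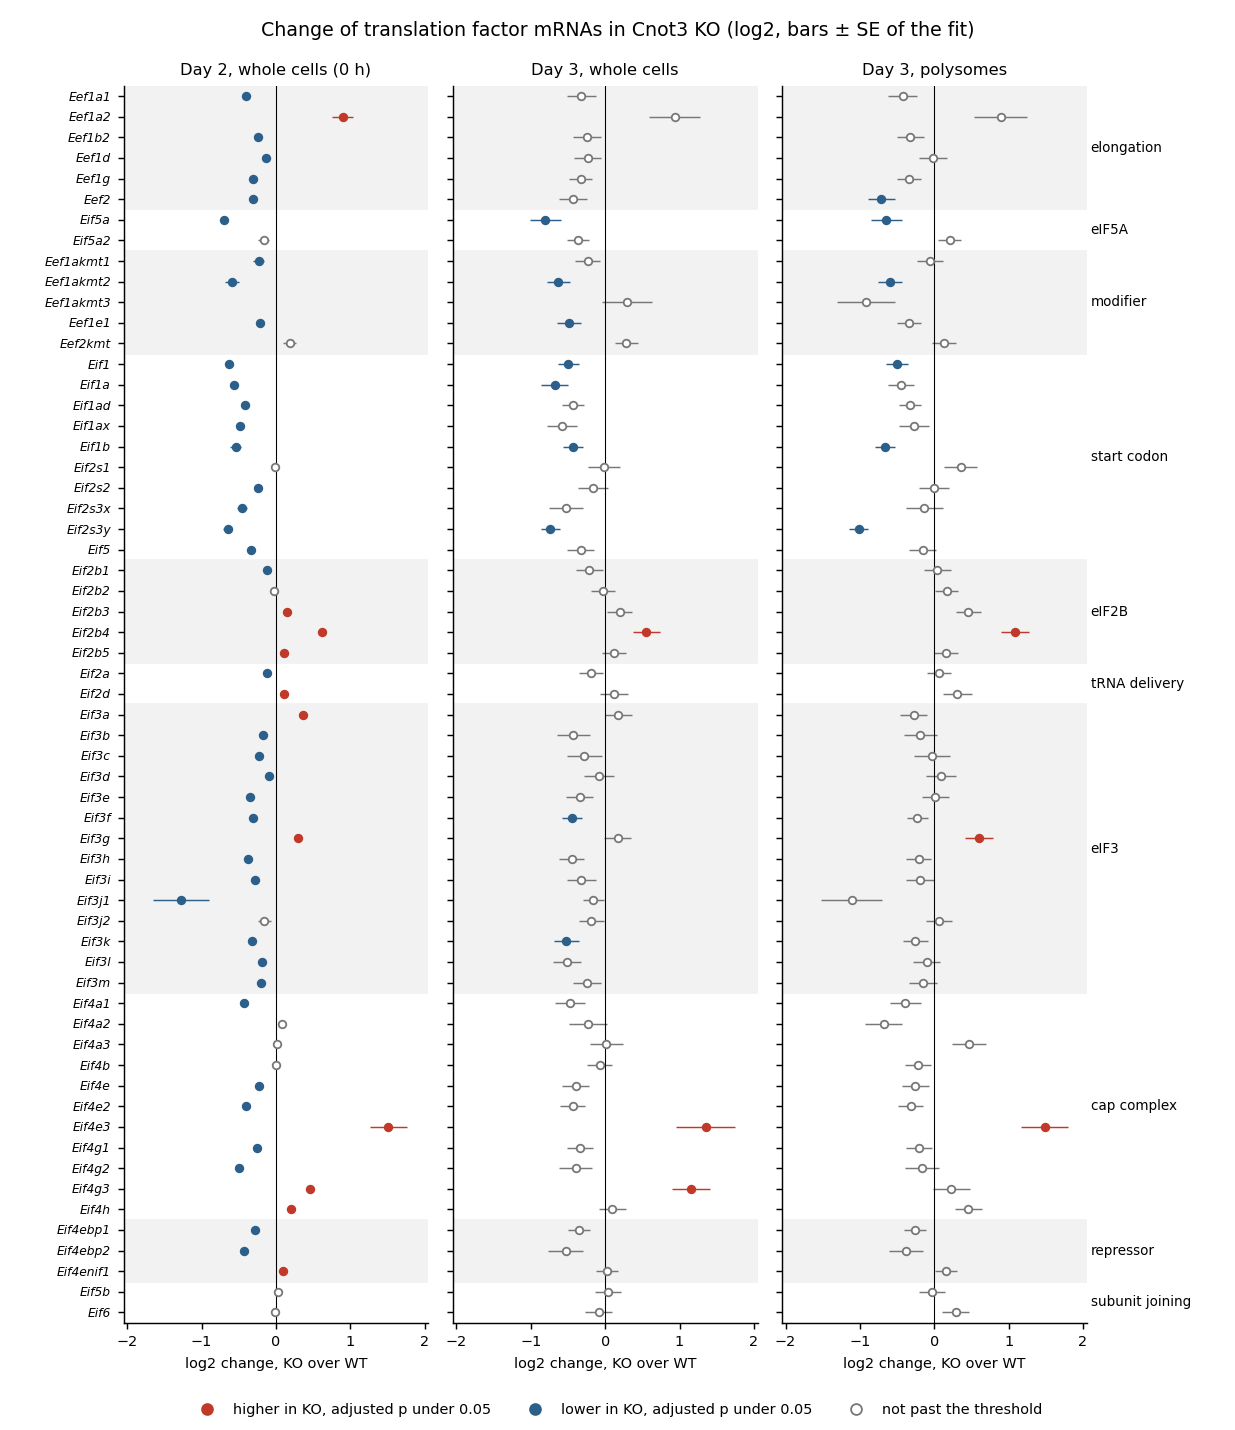
Log2 change of each tested factor mRNA in KO over WT (horizontal axis; bars are the SE of the fit) at 0 h on day 2, in total RNA on day 3 and in polysomes on day 3, with genes down the page grouped by role. Red points rose and blue points fell at an adjusted p under 0.05, open points did not pass. At 0 h 38 points are blue and 11 red, in total RNA 9 and 3, and in polysomes 6 and 3, and the bars of day 3 are wider.

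In total RNA on day 3 the median change of the factors was again below 0, but fewer members passed the test. Of 60 factors tested 9 fell and 3 rose (edgeR's quasi-likelihood test), where 12.2% of all genes fell and 16.0% rose. The median log2 change was -0.26 over the factors and 0.01 over all genes, -0.28 over core elongation factors and -0.24 over initiation factors. KO and WT libraries did not overlap for 54 of the 60, where 80.3% of all tested genes did not. Those that fell were Eif5a, Eif2s3y, Eif1a, Eef1akmt2, Eif3k, Eif1, Eef1e1, Eif3f and Eif1b, and those that rose were Eif4e3, Eif4g3 and Eif2b4. Day 2 and day 3 are separate libraries: all 38 factors that fell at 0 h had a negative change in total RNA and all 11 that rose had a positive one, of which 9 and 3 passed the test on day 3. In polysomes 34 of the 38 had a negative and 4 a positive change, and 10 of the 11 a positive and 1 a negative one. The same shares over all genes called at 0 h were not taken, so whether this is particular to the factors is not known.

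Eif5a was at 805.0 and 850.7 CPM in KO total RNA, against 1465 and 1427 CPM in WT total RNA, with a log2 change of -0.80 ± 0.21 (adjusted p 0.0175, edgeR). Eif2s3y was at 26.2 and 27.5 CPM in KO total RNA, against 46.2 and 43.3 CPM in WT total RNA (log2 -0.74 ± 0.13, adjusted p 0.00249, edgeR). Eif4g3 was at 39.6 and 40.9 CPM in KO total RNA, against 17.1 and 19.0 CPM in WT total RNA (log2 1.16 ± 0.25, adjusted p 0.00807, edgeR). KO and WT libraries stood apart in all 3. Eif1a, for the factor that partners eIF1 on the small subunit, was at 301.9 and 283.4 CPM in KO total RNA, against 474.2 and 463.3 CPM in WT total RNA (log2 -0.68, adjusted p 0.0182, edgeR). Eif4e3 rose by 1.35 ± 0.39 on 40 and 37 counts in KO libraries, against 8 and 20 counts in WT libraries, and Eif2b4 by 0.55 ± 0.18 (adjusted p 0.0433, edgeR).

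No core elongation factor passed in total RNA. Eef1a1 was at 9659 and 9151 CPM in KO total RNA, against 12076 and 11469 CPM in WT total RNA (log2 -0.32 ± 0.20, adjusted p 0.232, edgeR). Eef2 was at 3045 and 3029 CPM in KO total RNA, against 4009 and 4189 CPM in WT total RNA (log2 -0.43 ± 0.18, adjusted p 0.100, edgeR). KO libraries of both lay below both WT libraries. Eef1b2, Eef1d and Eef1g had log2 values of -0.24, -0.24 and -0.33, and Eef1a2 had 0.93, with adjusted p of 0.0651 to 0.355 (edgeR). The fit pools the spread of the total and polysome libraries: with the 4 total libraries alone the adjusted p of Eef2 was 3.93e-05 and 39 factors fell and 8 rose, and without the first or the second WT polysome library 36 and 37 fell. With scaling to library totals, which shifted the median of all genes by 0.26 (log2), 1 factor fell and 5 rose, RLE gave 13 and 2 and DESeq2 20 and 3, and leaving out any total library left at most 2 that fell and 1 that rose.

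In polysome RNA on day 3, 6 of 60 factors fell and 3 rose (edgeR's quasi-likelihood test), where 21.1% of all genes fell and 15.9% rose. The median log2 change was -0.16 over the factors and -0.08 over all genes, -0.33 over core elongation factors and -0.15 over initiation factors. Those that fell were Eif2s3y, Eef2, Eif1b, Eif5a, Eef1akmt2 and Eif1, and those that rose were Eif4e3, Eif2b4 and Eif3g. KO and WT libraries did not overlap for 30 of the 60, where 62.0% of all tested genes did not.

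Eif2s3y was at 22.0 and 22.2 CPM in KO polysomes, against 44.5 and 45.2 CPM in WT polysomes (log2 -1.02 ± 0.13, adjusted p 0.000317, edgeR). Eef2 was at 2384 and 2279 CPM in KO polysomes, against 4000 and 3646 CPM in WT polysomes (log2 -0.71 ± 0.18, adjusted p 0.0122, edgeR). Eif2b4 was at 144.4 and 131.8 CPM in KO polysomes, against 78.7 and 51.8 CPM in WT polysomes (log2 1.08 ± 0.19, adjusted p 0.00156, edgeR). In these 3 genes no KO library overlapped a WT library. Eif4e3 was at 5.96 and 5.29 CPM in KO polysomes, against 1.88 and 2.12 CPM in WT polysomes (log2 1.48 ± 0.32). Eif1b was at 29.5 and 27.3 CPM in KO polysomes, against 44.6 and 45.3 CPM in WT polysomes (log2 -0.67 ± 0.14). Eif5a was at 1381 and 1113 CPM in KO polysomes, against 2281 and 1619 CPM in WT polysomes (log2 -0.65 ± 0.21, adjusted p 0.0328, edgeR), and the pair of WT libraries lay further from each other than the KO pair.

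Of the other core elongation factors, Eef1a1 was at 2593 and 2472 CPM in KO polysomes, against 3555 and 3259 CPM in WT polysomes, and did not pass (log2 -0.43 ± 0.20, adjusted p 0.109, edgeR). Eef1b2 and Eef1g had log2 values of -0.32 and -0.34, Eef1d had -0.02 and Eef1a2 had 0.89, with adjusted p from 0.0733 to 0.969 (edgeR). The calls of Eef2 and Eif5a ended with the 4 polysome libraries alone (adjusted p 0.131 and 0.187, with 1 factor lower and 2 higher in all) and with any 1 KO polysome or total library left out, while without the second WT polysome library, the one with more mitochondrial mRNA, 30 factors fell and 3 rose, and without the first 12 fell and 20 rose. Scaling to library totals, which shifted the median of all genes by 0.23 (log2), gave 2 lower and 13 higher, and no filter on low counts gave 3 and 7. Of 6 alternatives that left no library out, Eef2 kept its call in 4 and Eif5a in 3.

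Whether the KO change in polysomes differed from that in total RNA was tested as an interaction. No factor passed in either direction by edgeR's quasi-likelihood test, where 0.00546% of all genes were called higher and 0.00546% lower. At an unadjusted p under 0.05, 1 factor was higher and 2 were lower, and DESeq2 called none of the factors. The median difference was 0.15 over the factors and -0.08 over all genes. The calls changed without the first WT polysome library, but WT polysomes were then left with the second alone, the one with more mitochondrial mRNA. With 1 library in that group, the fit cannot decide whether the interaction holds.

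Within WT cells, the polysome libraries were set against the total libraries. Of 60 factors, 10 were higher in polysome libraries and 19 lower (edgeR's quasi-likelihood test), where 29.0% of all genes were higher and 26.7% lower, and the median log2 difference was -0.05 over the factors and 0.05 over all genes. Eif4a1, for the main eIF4A helicase, was at 356.1 and 249.7 CPM in WT polysomes, against 3794 and 3642 CPM in WT total RNA (log2 -3.62 ± 0.23). Eif2s3x, for the X-linked eIF2 gamma subunit, was at 24.7 and 13.2 CPM in WT polysomes, against 272.0 and 248.8 CPM in WT total RNA (log2 -3.79 ± 0.26). Eif3j1 was at 0.506 and 0.883 CPM in WT polysomes, against 78.2 and 70.4 CPM in WT total RNA (log2 -6.70 ± 0.22). All 3 were lower by far more than the spread between libraries.

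These 3 genes, with Eef1g (log2 -3.05 ± 0.17) and Eef1a1 (-1.79 ± 0.20), share long stretches of sequence with other annotated genes, many of them pseudogenes. A gene's share was taken as the percentage of the 50-base words of its longest coding transcript that also occur in transcripts of other genes. It was 65.3% for Eif4a1, 64.3% for Eef1g, 59.2% for Eef1a1, 39.8% for Eif3j1 and 36.2% for Eif2s3x. Of 12 factors over 20%, 11 were lower in WT polysome libraries and 1 was higher, with a median log2 of -1.55. Of 48 factors at or under 20%, 8 were lower and 9 higher, with a median of 0.12. Reads with more than 1 alignment were tallied at above 0 only for total RNA. Within this comparison library type, fraction and the handling of shared reads thus cannot be told apart. WT whole-cell libraries at 0 h also had a tally of 0. They held 311.9 and 313.5 CPM of Eif4a1, 243.9 and 245.8 CPM of Eef1g, and 3692 and 3748 CPM of Eef1a1. Eif2s3x was at 26.1 and 25.8 CPM there and Eif3j1 at 1.02 and 1.01 CPM. The low levels of these genes were thus not confined to polysome libraries. Those libraries are from day 2 and were scaled separately, and the part of each difference was not tested. Counts of the 12 genes are uncertain between total RNA and the polysome or actinomycin D libraries, whereas KO and WT libraries of 1 type hold the same kind of tally.

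Of factors with little shared sequence, Eif4ebp2 was at 170.1 and 99.5 CPM in WT polysomes, against 31.3 and 35.6 CPM in WT total RNA (log2 2.01 ± 0.24). Eif4g3 was at 48.5 and 78.0 CPM in WT polysomes, against 17.1 and 19.0 CPM in WT total RNA (log2 1.81 ± 0.26). WT polysome libraries lay above the WT total libraries in both. Eif4e3 was higher as well (1.91 ± 0.40), and among those lower were Eif4g1 (-1.44) and Eif3a (-1.16). Eef2 (-0.10) and Eef1b2 (-0.12) did not pass. Scaling to library totals, which shifted the median of all genes by 0.29 (log2), gave 22 higher and 14 lower, the 4 WT libraries alone gave 5 and 16, either WT total library left out gave 5 higher, and the second WT polysome library left out gave 26 higher.

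**Figure D2:**
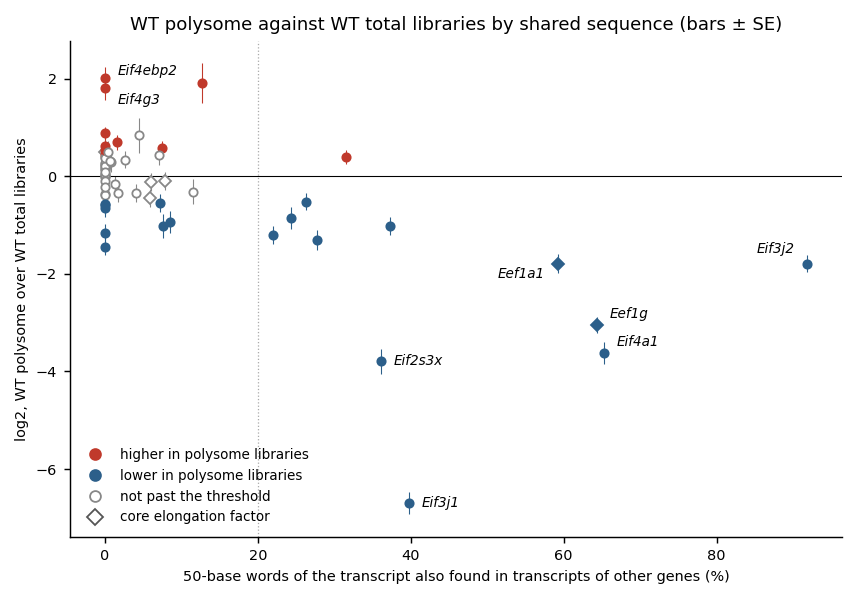
Log2 difference between WT polysome and WT total libraries (vertical axis; bars are the SE of the fit) against the percentage of 50-base words of a gene's longest coding transcript found in other genes (horizontal axis), for the 60 tested factors. Diamonds are core elongation factors, the dotted line marks 20%, and to its right 11 of 12 points are lower in polysome libraries.

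After actinomycin D, levels show how an mRNA was lost relative to the other mRNAs, since each library is scaled to its own content: a slope above 0 means slower loss than the average mRNA, in log2 per hour over 0, 4 and 8 h. In WT cells 39 of 59 factors had a slope above 0 and 12 a slope below 0 at an adjusted p under 0.05 (edgeR's quasi-likelihood test), where 35.0% of all genes were above and 38.8% below. In KO cells 46 were above and 5 below, where 31.6% of all genes were above and 36.3% below. All 6 core elongation factors were above 0 in both arms, with a median slope of 0.09 in KO cells and 0.10 in WT cells. Of 44 initiation factors 33 were above and 4 below in KO cells, and 27 above and 10 below in WT cells. With library totals the WT slopes were 27 above and 15 below.

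Eef1a1 was at 2785 and 2869, 3968 and 3972, and 4920 and 4911 CPM in KO cells at 0, 4 and 8 h, against 3692 and 3748, 6133 and 6179, and 7903 and 7637 CPM in WT cells. Both arms gained in relative level at each time, and KO libraries stayed below WT libraries. Its slope was 0.10 ± 0.01 in KO cells and 0.13 ± 0.01 in WT cells. Eef1b2, Eef1d, Eef1g and Eef1a2 had slopes of 0.10, 0.08, 0.09 and 0.08 in KO cells, against 0.09, 0.09, 0.10 and 0.09 in WT cells. In WT cells the steepest slopes outside these were those of Eif5a (0.11 in KO cells, against 0.17 in WT cells), Eif3i (0.11, against 0.15), Eif3k (0.11, against 0.14), Eif1ax (0.10, against 0.14) and Eif3c (0.09, against 0.14).

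The mRNA lost fastest in both arms was Eif1a. It was at 203.2 and 212.3, 70.2 and 70.3, and 29.6 and 27.2 CPM in KO cells at 0, 4 and 8 h, against 301.7 and 313.5, 72.0 and 74.9, and 41.3 and 43.2 CPM in WT cells. The slope was -0.36 ± 0.03 log2 per hour in KO cells and -0.36 ± 0.03 in WT cells, with a difference of 0.00 ± 0.04 (adjusted p 0.989, edgeR). Its course was not a straight line. Relative to its start, the level fell further in WT cells from 0 to 4 h and further in KO cells from 4 to 8 h. Equal fitted slopes thus do not mean equal loss in each interval. Eif1 followed at -0.15 ± 0.01 in KO cells and -0.19 ± 0.01 in WT cells. Its libraries were at 43.1 and 42.1 CPM in KO cells at 8 h, against 53.0 and 51.2 CPM in WT cells. Eif4enif1 was below 0 in both arms too, at -0.07 in KO cells and -0.08 in WT cells. The X-linked paralog Eif1ax encodes nearly the same protein as Eif1a and had a slope on the other side of 0 in both arms.

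**Figure D3:**
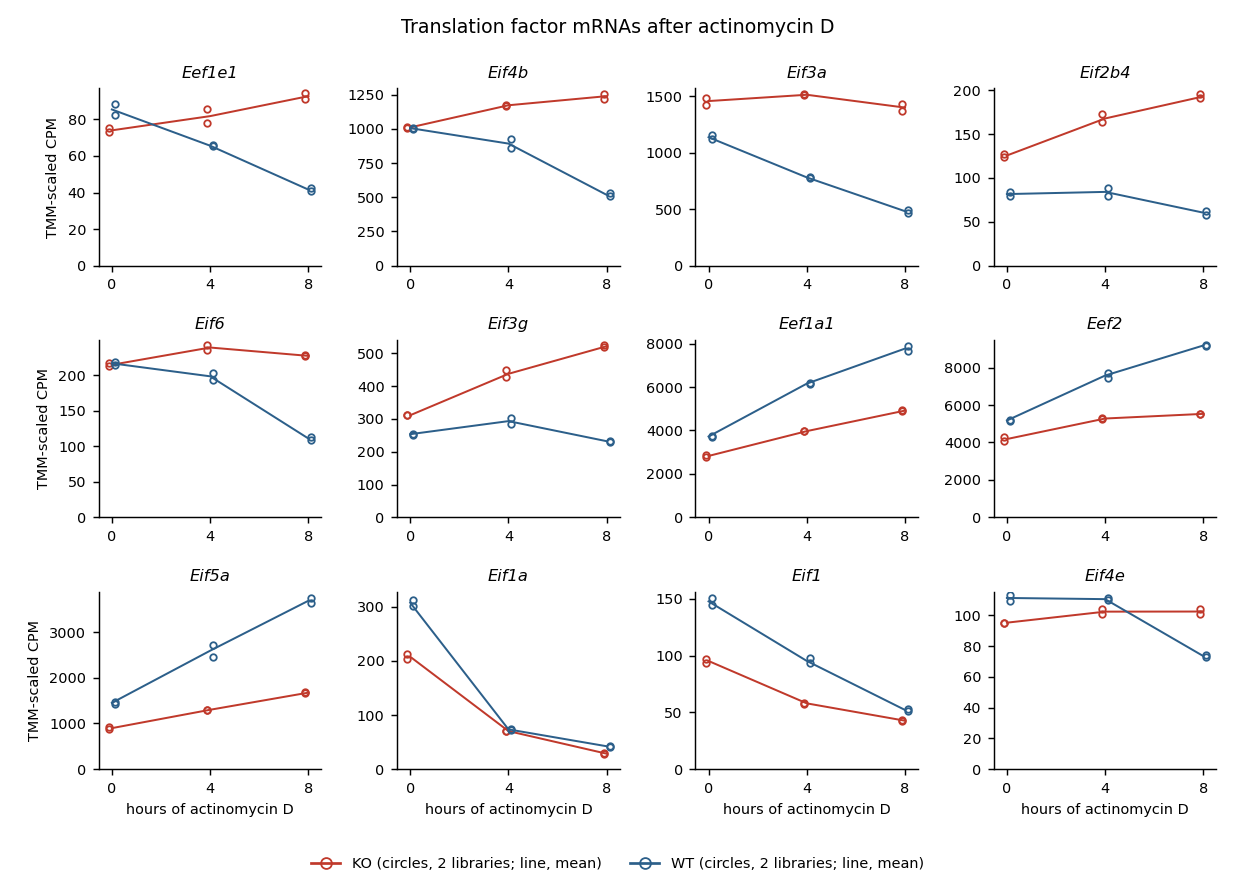
Scaled CPM (vertical axes, from 0) of 12 factor mRNAs over hours of actinomycin D (horizontal axes) in KO and WT cells; circles are libraries and lines means of 2. Eef1e1, Eif4b, Eif3a, Eif2b4, Eif6 and Eif3g end higher in KO cells at 8 h, Eef1a1, Eef2 and Eif5a end lower, and Eif1a falls in both arms.

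The difference of slopes between KO and WT was tested next, which asks whether an mRNA was lost at another relative rate without Cnot3. It draws on the same 12 libraries as the comparison at 0 h. Of 59 factors, 10 had a higher slope in KO cells and 6 a lower slope (edgeR's quasi-likelihood test), where 10.2% of all genes had a higher and 8.78% a lower slope, and the median difference was 0.00 over the factors and -0.01 over all genes. The 10 were Eef1e1, Eif4b, Eif3a, Eif2b4, Eif6, Eif3g, Eif4e, Eif2b2, Eif4a3 and Eif4e2. In WT cells 8 of them had a slope below 0 and 2 (Eif2b2 and Eif3g) a slope that did not pass, and in KO cells 6 had a slope above 0 and none a slope below 0. Of 12 factors with a WT slope below 0 the other 4, Eif1, Eif1a, Eif1ad and Eif4enif1, had a slope below 0 in KO cells as well and did not pass the test of the difference.

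Eef1e1, which encodes a partner of the tRNA synthetase complex, was at 91.1 and 94.3 CPM in KO cells at 8 h, against 42.4 and 40.8 CPM in WT cells. At 0 h it was at 72.9 and 75.1 CPM in KO cells, against 82.2 and 88.7 CPM in WT cells. The order of the arms thus turned round between 0 and 8 h, with no overlap at either time. The slope was 0.04 ± 0.01 in KO cells and -0.13 ± 0.01 in WT cells, a difference of 0.17 ± 0.01 log2 per hour (adjusted p 4.86e-06, edgeR).

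Eif4b, for the cofactor of the eIF4A helicase, was at 1006 and 1017 CPM in KO cells at 0 h, against 1002 and 1010 CPM in WT cells, so the arms overlapped. At 8 h it was at 1259 and 1221 CPM in KO cells, against 506.5 and 529.2 CPM in WT cells. The KO mean was 101% of the WT mean at 0 h, 131% at 4 h and 240% at 8 h. The slope difference was 0.16 ± 0.02 (adjusted p 0.000233, edgeR).

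Eif3a was at 1427 and 1490, 1518 and 1510, and 1430 and 1372 CPM in KO cells at 0, 4 and 8 h, against 1156 and 1120, 774.3 and 790.0, and 493.8 and 471.1 CPM in WT cells. It held its relative level in KO cells and was lost in WT cells, with slopes of -0.01 ± 0.01 in KO cells and -0.15 ± 0.01 in WT cells. The difference was 0.15 ± 0.01 (adjusted p 6.02e-06, edgeR). Of the 14 eIF3 subunit mRNAs, Eif3g was the other with a higher slope in KO cells (difference 0.11 ± 0.02, adjusted p 0.00216, edgeR), with 518.1 and 525.7 CPM in KO cells at 8 h, against 230.3 and 234.1 CPM in WT cells. Eif3c had a lower slope, and 11 subunits did not pass.

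Among eIF2B mRNAs, Eif2b4 was at 195.1 and 190.6 CPM in KO cells at 8 h, against 62.6 and 58.1 CPM in WT cells, so its KO mean was 319% of the WT mean, against 154% at 0 h. Its slope was 0.08 ± 0.01 in KO cells and -0.05 ± 0.01 in WT cells, a difference of 0.13 ± 0.02 (adjusted p 0.000664, edgeR). Eif2b2, for the beta subunit, did not pass at 0 h (log2 -0.02) and had a slope difference of 0.08 ± 0.01 (adjusted p 0.00204, edgeR). Eif2b1, Eif2b3 and Eif2b5 had slope differences of -0.0023, 0.03 and -0.03, which did not pass. Eif6, whose product keeps the large ribosomal subunit from joining too early, was at 226.2 and 227.8 CPM in KO cells at 8 h, against 113.0 and 108.7 CPM in WT cells (difference 0.13 ± 0.02, adjusted p 0.00389, edgeR). Eif5b, grouped with Eif6 here under subunit joining, had a difference of -0.03, which did not pass.

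The cap-binding mRNA Eif4e was at 103.8 and 101.2 CPM in KO cells at 8 h, against 72.9 and 74.1 CPM in WT cells, while at 0 h it was at 95.2 and 95.3 CPM in KO cells, against 109.3 and 113.3 CPM in WT cells. The slope difference was 0.09 ± 0.02 (adjusted p 0.00799, edgeR). Eif4a3, for the helicase of the exon junction complex, had a difference of 0.08 (adjusted p 0.000985, edgeR), and Eif4e2, for a cap-binding relative that represses translation, one of 0.04 (adjusted p 0.0301, edgeR). The 8 largest of the 10 differences passed in each of 18 alternatives, which covered scaling, the filter, DESeq2, a replicate block, hours as a factor and each of the 12 libraries left out. Eif4a3 and Eif4e2, which complete the 10, were not tried singly under these. TATTTAT occurred in 2 of the 10 genes, Eef1e1 and Eif3a, and TGTANATA in 2, Eif4a3 and Eif4e, as printed above. Of all tested genes 28.6% and 25.3% held them.

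The 6 factors with a lower slope in KO cells had slopes above 0 in both arms. Eif5a was at 1685 and 1661 CPM in KO cells at 8 h, against 3736 and 3632 CPM in WT cells, and Eef2 was at 5524 and 5531 CPM in KO cells, against 9151 and 9208 CPM in WT cells. KO libraries of both lay below WT libraries at each time. The slope differences were -0.06 ± 0.02 for Eif5a (adjusted p 0.0303, edgeR) and -0.05 ± 0.02 for Eef2 (adjusted p 0.0419, edgeR), and Eif4g1, Eif3c, Eif4g2 and Eif4ebp1 had differences of -0.052, -0.048, -0.046 and -0.041. Eef2 was the only core elongation factor among them, and Eef1a1 did not pass (-0.03 ± 0.02, adjusted p 0.212, edgeR). These 6 calls were less secure and moved both ways. Hours as a factor in place of a line gave 16 lower and 20 higher, and no filter 6 and 11. RLE scaling and library totals left 0 lower, with 11 and 17 higher, DESeq2 left 3 lower and 15 higher, and the replicate block 2 and 10. None were left without either WT library at 0 h, either KO library at 8 h or the first WT library at 8 h, 1 without either KO library at 0 h, and 2 without the second KO library at 4 h.

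**Figure D4:**
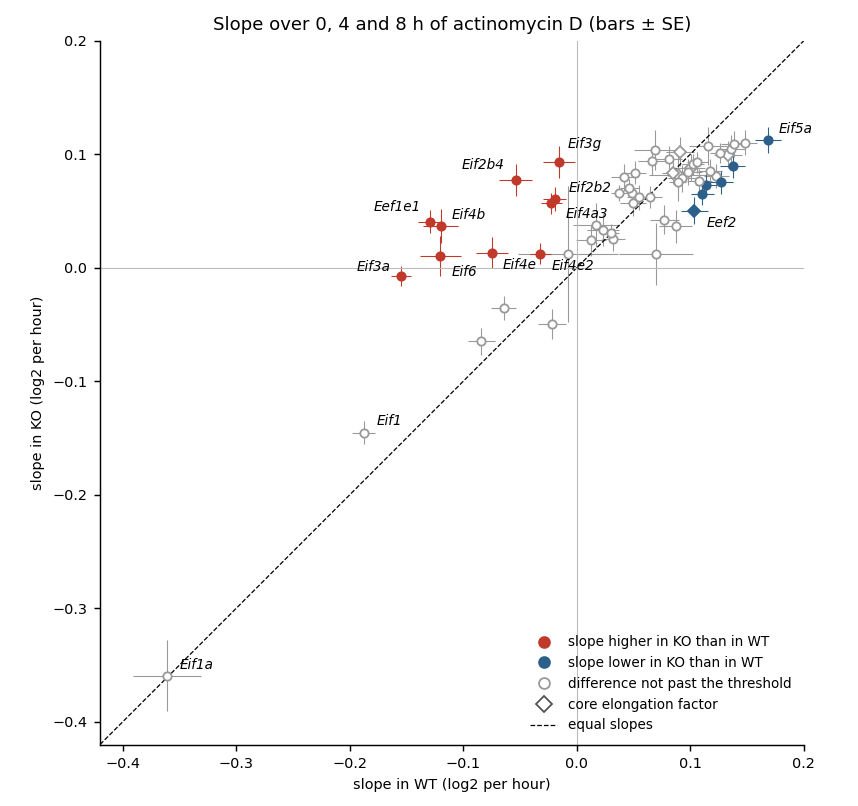
Slope over hours of actinomycin D in KO cells (vertical axis) against that in WT cells (horizontal axis), both in log2 per hour, for the 59 tested factors, with bars for the SE. The 10 red points (slope higher in KO) lie above the line of equal slopes and at or left of 0 in WT, the 6 blue points (slope lower in KO) lie just below the line at the upper right, and Eif1a lies on the line at the lower left.

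Summed over each class, the mRNAs of core elongation factors were lower in KO cells at every stage. The elongation sum was 8608 and 8463 CPM in KO cells at 0 h, against 10684 and 10653 CPM in WT cells. At 8 h it was 13037 and 13051 CPM in KO cells, against 20000 and 19784 CPM in WT cells. The KO mean was 80.0%, 69.4% and 65.6% of the WT mean at 0, 4 and 8 h, 79.1% in total RNA and 70.7% in polysomes. For initiation factors it was 90.6%, 85.5% and 88.7% at 0, 4 and 8 h, 83.9% in total RNA and 94.4% in polysomes. Elongation sums of KO and WT libraries did not overlap at any stage, while initiation sums overlapped in polysomes. The lower initiation sums in KO cells depended on the scaling. As a share of all gene counts they were 1.540% and 1.561% in KO cells at 0 h, against 1.535% and 1.543% in WT cells. At 8 h they were 1.892% and 1.883% in KO cells, against 1.745% and 1.736% in WT cells. Elongation shares at 8 h stayed lower, at 1.319% and 1.321% in KO cells, against 1.642% and 1.649% in WT cells.

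The ratio of the elongation sum to the initiation sum within a library does not depend on scaling. It was 0.654 and 0.625 in KO cells at 0 h, against 0.724 and 0.723 in WT cells. At 8 h it was 0.697 and 0.701 in KO cells, against 0.941 and 0.950 in WT cells. In total RNA it was 0.963 and 0.922 in KO cells, against 1.006 and 0.993 in WT cells, and in polysomes 0.514 and 0.531 in KO cells, against 0.628 and 0.791 in WT cells. KO libraries were lower at each stage, and with 2 libraries against 2 an exact two-sided permutation test cannot go below p = 0.333. The sums also hold genes of uncertain counts between total RNA and other library types. Among them Eif4a1 was at 3794 and 3642 CPM in WT total RNA, against 311.9 and 313.5 CPM in WT cells at 0 h. Sums and ratios are thus set KO against WT within a stage and not between library types. The sums rest on few genes. Eef1a1 and Eef2 made up 76.1% to 85.3% of the elongation sum, and at 8 h they stood at 61.6% of WT, against 88.4% for the other 4. Without Eif3a and Eif4b the initiation sum at 8 h was 79.9% of WT. The eIF5A sum was 62.3% of WT at 0 h and 45.6% at 8 h, and the eIF2B sum 111% and 120%.

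**Figure D5:**
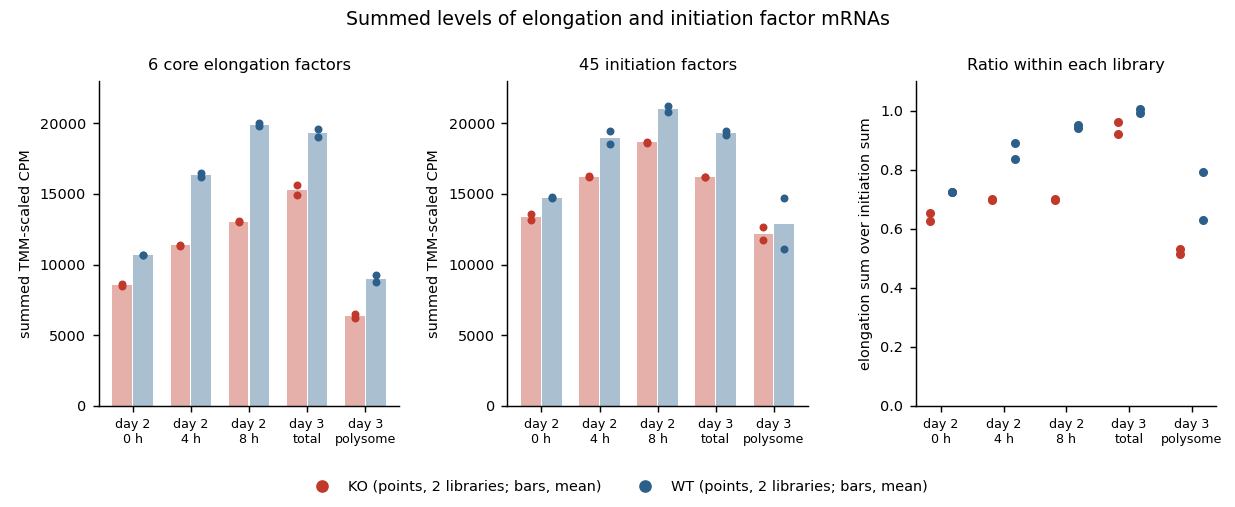
Summed CPM (vertical axes, from 0) of 6 core elongation factors and 45 initiation factors, and their ratio within each library, at 0, 4 and 8 h of actinomycin D on day 2 and in total RNA and polysomes on day 3; points are libraries and bars means of 2, with KO left of WT. The ratio is lower in KO at each stage, as at 8 h (0.697 and 0.701 in KO, against 0.941 and 0.950 in WT). Sums hold genes whose counts are uncertain between total RNA and other library types.

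Genes that control the factors were taken as lists, whose counts at 0 h stand beside the 32.9% of all tested genes that fell and the 29.8% that rose. Of 6 genes for eIF2 kinases and the phosphatase subunits that reverse them, 3 fell and 1 rose at 0 h, with Ppp1r15b at -0.85 ± 0.05 and Ppp1r15a at -0.69 ± 0.08 (log2, KO over WT). Of 13 mTORC1 and TOP control genes 9 fell and 2 rose, among them Larp1, whose product binds TOP mRNAs, at -0.66 ± 0.04, the S6 kinase gene Rps6kb1 at -0.85 ± 0.05, and Ddit4, for an inhibitor of mTORC1, at 1.50 ± 0.14. Ddit4 also rose in total RNA (1.54 ± 0.15) and polysomes (1.37 ± 0.15). Of 4 genes for factor kinases and the eIF4A inhibitor, Pdcd4, the inhibitor, rose by 0.84 ± 0.06 and Mknk2, an eIF4E kinase, by 0.44 ± 0.05, and both rose on day 3 as well. Of 9 genes for the synthesis of hypusine on eIF5A and diphthamide on eEF2, 3 fell, a share near that of all genes, and none rose. Dhps, for the first enzyme of hypusine synthesis, fell by 0.71 ± 0.06 at 0 h, by 0.93 ± 0.15 in total RNA and by 1.04 ± 0.15 in polysomes. Of 5 poly(A)-binding protein genes and partners 4 fell at 0 h (Pabpc4 -0.53 ± 0.05, Pabpc1 -0.45 ± 0.04), and of 7 termination and recycling genes 5 fell (Abce1 -0.39 ± 0.04, Etf1 -0.34 ± 0.04).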

How the data were processed

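Each of the 20 libraries had a deposited table of raw counts for every gene ID, which the authors made with STAR 2.3.0e, HTSeq (version not given in the sources used here) and mm9, per the submitters' processing notes. Libraries were prepared with an Illumina TruSeq RNA kit, per the design text; poly(A) selection and strand setting are not given in the sources used here, so reads of overlapping antisense genes cannot be told apart. Reads assigned to no gene made up 19.8% to 23.7% in total, 4.75% to 12.9% in polysome and 5.26% to 8.12% in actinomycin D libraries and were left out. Symbols, biotypes, exon lengths and 3′ sequences came from GENCODE M21 and start sequences from RefSeq, both on GRCm38 rather than mm9, matched by gene ID and symbol. Of the 62 genes, 46 had a start sequence.

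One model held the 8 day 3 libraries and another the 12 of the actinomycin D series, both in edgeR 4.0.16 (R 4.3.3), with TMM scaling, low genes removed by filterByExpr (minimum count 10), robust quasi-likelihood F-tests, and Benjamini-Hochberg adjustment over all genes tested with a threshold of 0.05. Slopes were fitted as a line over hours within each arm. Errors are the SE of the fit. Both models were checked first on simulated counts in which 200 genes had been changed, as many up as down. Every gene was given the same spread there. The check thus does not address the choice of scaling or the spread of single genes in these data. Class sums and medians are descriptions, with no test.

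Named genes were the 6 core elongation and 2 eIF5A genes and, in each comparison, up to 8 other members at either end of the log2 changes past the threshold, plus counts for each complex and the genes of smallest adjusted p of each list. Members named beyond this, to complete a complex or a count, were chosen after their values were seen. The members and lists were chosen with earlier results of these data known. Alternatives were RLE scaling, library totals, no filter, DESeq2 1.42.0, a replicate block, the compared libraries alone, hours as a factor and each library left out. Sequences were read with Python 3.11.15 and figures drawn with matplotlib 3.10.9.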

Additional observations from a re-analysis of the deposited data

Results flagged for a closer look

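A test of the difference in slope between KO and WT cells picked out 16 of 59 factors. It was edgeR's quasi-likelihood test with Benjamini-Hochberg adjustment over all genes. Of all tested genes it called 10.2% higher and 8.78% lower. Differences are in log2 per hour, KO minus WT. The slope was higher in KO cells for Eef1e1 (0.17), Eif4b (0.16), Eif3a (0.15), Eif2b4 (0.13), Eif6 (0.13), Eif3g (0.11), Eif4e (0.088), Eif2b2 (0.080), Eif4a3 (0.079) and Eif4e2 (0.044). It was lower in KO cells for Eif5a (-0.056), Eef2 (-0.053), Eif4g1 (-0.052), Eif3c (-0.048), Eif4g2 (-0.046) and Eif4ebp1 (-0.041). These 6 are 10.2% of the factors tested, near the share of all genes. Lower calls numbered 0 with RLE scaling and with library totals. The part of the shift in cell type markers in these differences was not tested.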

How the results depend on the processing

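Over factors named in a comparison, 2256 repeats kept direction and side of the threshold, 198 no longer passed, 61 came to pass and 3 turned sign (at 0 h, Eef1d to 0.021 with library totals, Eif2b5 to -0.027 with RLE and to -0.027 with DESeq2). Counts of called factors that moved by over 1.5 times were as follows. In total RNA, library totals gave 5 higher and 1 lower, the 4 libraries alone 8 and 39, no filter 16 lower and DESeq2 20 lower. In polysomes, library totals gave 13 higher and 2 lower, no filter 7 and 3, DESeq2 5 higher and the 4 libraries alone 1 lower. For WT polysomes over WT total RNA, library totals gave 22 higher and the 4 libraries alone 5. At 0 h, RLE gave 6 higher, DESeq2 6 and library totals 19. For slopes in KO, DESeq2 gave 3 below 0. For slope differences, library totals gave 17 higher and hours as a factor 20, and lower slopes numbered 0 with RLE, 0 with library totals, 3 with DESeq2 and 16 with hours as a factor. The replicate numbers do not pair the samples by the labels, and same-numbered KO and WT libraries deviated together with r of 0.18 (total RNA), 0.26 (polysomes) and 0.032 (0 h). With the replicate number as a block, the counts higher and lower were 4 and 13 in total RNA, 4 and 7 in polysomes, 11 and 39 at 0 h, and 10 and 2 for slope differences. Leaving out each library in turn, counts higher and lower ran from 0 to 4 and 1 to 37 in total RNA, 2 to 20 and 2 to 30 in polysomes, 0 to 27 and 0 to 2 for the interaction, 5 to 26 and 16 to 27 for WT polysomes over WT total RNA, 7 to 12 and 35 to 40 at 0 h, 36 to 39 and 9 to 13 for WT slopes, 41 to 46 and 4 to 5 for KO slopes, and 9 to 14 and 0 to 8 for slope differences. The median log2 of core elongation minus that of initiation factors ran from -0.083 to -0.028 in total RNA, -0.50 to 0.077 in polysomes (0.077 without the second WT polysome library), -0.49 to -0.045 for the interaction, -0.20 to -0.085 for WT polysomes over WT total RNA, -0.081 to -0.031 at 0 h, 0.044 to 0.055 for WT slopes, 0.012 to 0.025 for KO slopes and -0.036 to -0.0029 for slope differences. The cause was not tested. Where leaving out 1 library left a group with 1, its spread was taken from the remaining groups, and Eif4e3, Eif3j1 and Eef1a2 were limited by low counts.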

Other observations

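The genes that act on the factors also differed in slope between KO and WT cells in places. Eif2ak3, for the eIF2 kinase PERK, was lost at -0.25 log2 per hour in KO cells and -0.39 in WT cells, a difference of 0.13 ± 0.01 (adjusted p 1.77e-05, edgeR). Of the genes for diphthamide synthesis on eEF2, Dph5 had a slope difference of 0.14 ± 0.02 and Dph7 of 0.10 ± 0.02. Dhps, for hypusine synthesis on eIF5A, had one of -0.04 ± 0.01. Pdcd4 and Mknk2 had differences of 0.13 ± 0.03 and 0.06 ± 0.02. Of the poly(A)-binding protein genes, Pabpc4 and Pabpc1 had differences of -0.07 ± 0.01 and -0.06 ± 0.02. None of the 7 termination and recycling genes passed by edgeR's quasi-likelihood test.

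The AU-rich motif TATTTAT occurred in 3 of the 6 factors with a lower slope in KO cells (Eef2, Eif4ebp1 and Eif4g2), and TGTANATA in none of them. Of all tested genes 28.6% held TATTTAT and 25.3% TGTANATA. Lower calls numbered 0 with RLE scaling and with library totals. The median 3′ untranslated region was 588 bases in these 6 factors and 1090 bases in all genes. With a WT slope above 0, 10 of 39 factors held TATTTAT and 6 held TGTANATA, and with a WT slope below 0, 2 and 4 of 12 did. The median lengths of the region were 543 bases in the 39 and 1202.5 bases in the 12. The part of length in these counts was not tested.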
